A study of Rattus norvegicus with 9 samples.

Results

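The comparison described here is that of primary rat Schwann cells given NF1 RNAi with the same cells given Control RNAi, 3 arrays of each and 6 of the 9 arrays in the series. The arrays were chosen by their group label alone. All 14213 genes with a probe set annotated to exactly 1 gene were compared, each through its probe set with the highest mean. The cells came from sciatic nerve and were transfected with scrambled control oligonucleotides or with oligonucleotides against Nf1, and RNA was taken 48 hours later from 3 independent replicates per group. The 3 remaining arrays came from NF1 RNAi cells that also received the MEK inhibitor UO126. They entered the estimate of the spread between arrays and the mean that chose each gene's probe set, but not the differences. The knockdown was transient, lowered Nf1 without deleting it, and was measured at this single time point.

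Schwann cells are the glia of peripheral nerve; they wrap axons, make myelin and, after injury, return to a dividing repair state. Nf1 encodes neurofibromin, which speeds the hydrolysis of GTP by Ras and so turns Ras off. When it is lost, Ras stays active longer and signals through RAF, MEK and ERK as well as through PI3K and other effectors. Loss of NF1 in the Schwann lineage underlies the neurofibromas of neurofibromatosis type 1.

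Levels below are log2(intensity + 1) of RMA values, listed in the order of replicates 1, 2 and 3. Differences are NF1 RNAi minus Control RNAi on that scale with the standard error (SE) of the limma fit, with n = 3 arrays per group. A gene was called higher or lower when its Benjamini-Hochberg adjusted p over the 14213 genes was under 0.05. Arrays give no read depth, so the number of arrays limits the precision. A log2 level of 6 is used as the low end of the array.

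Among the controls, replicate 1 stood apart. Taken over genes, its log2 differences had an SD of 0.323 from replicate 2 and 0.368 from replicate 3, and those 2 arrays differed by an SD of 0.144. Within the NF1 RNAi group, replicate 1 was also the more distant array, at 0.208 and 0.248 against 0.149. Results are therefore given with and without Control RNAi replicate 1, and the value without it is written out where it matters.

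Markers of the labelled cell type were present. Of 9 Schwann cell markers, 6 were measured by a probe set of exactly 1 gene (Sox10, Ngfr, Erbb3, S100b, Gfap and Foxd3), and none of them lay under the low end in all arrays. Sox10, the lineage transcription factor, read 11.47, 11.37 and 11.36 in the control arrays and 11.36, 11.41 and 11.37 with NF1 RNAi, a difference of -0.02 ± 0.07 (adjusted p = 0.859). S100b rose by 0.79 ± 0.07, and the other 5 did not pass. With the replicate number as a block in the limma model Erbb3, the neuregulin co-receptor, passed too, at a difference of 0.53 (adjusted p = 0.000939, against 0.115 without the block). The summed intensity of the 6 ran from 18158 to 23497 in the control arrays and from 29195 to 29680 with NF1 RNAi; without S100b it overlapped, at 9516 to 13276 and 12220 to 12974.

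Markers of other cell types were mixed. All 7 measured endothelial markers, 9 of 12 macrophage and leukocyte markers and all 5 adipocyte markers were under the low end in every array. Laptm5, a lysosomal protein of leukocytes, was over it and rose by 0.33 ± 0.06 (0.60 at its other probe set), and the sum of the 12 leukocyte markers was 475 to 526 in controls and 539 to 559 with NF1 RNAi. Without Laptm5, the brightest of them, the sums overlapped, at 353 to 404 and 385 to 401. Of 11 fibroblast markers, Dcn, Lum, Pdgfra and Dpt were under the low end in every array. Col3a1 and Mfap5 fell and Ogn rose. The Ogn call was lost in 3 of the 6 fits that left out 1 array. The summed intensity of the 11 was 37254 to 39317 in controls and 30506 to 31638 with NF1 RNAi. Of 8 mural and smooth muscle markers, Rgs5, Cspg4 and Cnn1 were under the low end, while Tagln, Acta2 and Pdgfrb fell. Acta2 lost its call in 5 of the 6 limma fits that left out 1 array (adjusted p up to 0.123). Among these was the fit without Control RNAi replicate 1. The other 2 Pdgfrb probe sets read -0.08 and -0.28, and 1 of them passed. The sum of the 8 went from a range of 2973 to 5935 to one of 931 to 1370. Tagln was the brightest of these markers, and without it the sum was 717 to 954 in controls and 585 to 618 with NF1 RNAi. Of 10 neuron markers, Rbfox3, Snap25, Syt1, Nefh and Stmn2 were under the low end in every array. Nefl, Nefm, Tubb3 and Uchl1 fell, Map2 differed by -0.01 ± 0.15 (adjusted p = 0.978) and Rbfox3 rose (its other probe set read -0.02). The calls of Uchl1 and Rbfox3 were each lost in 4 of the 6 fits that left out 1 array. The sum of the 10 was 8517 to 13016 in controls and 4519 to 5156 with NF1 RNAi. None of 6 melanocyte and 6 skeletal muscle markers passed. With the replicate block 4 more markers of these other cell types did: Pmel (0.24, adjusted p = 0.0164) and Cnn1 (0.29, 0.0333) were higher, and Tyrp1 (-0.29, 0.0291) and Fbln1 (-0.63, 0.0322) lower. Fewer cells of a type and less RNA per cell cannot be told apart in bulk RNA, and the part of these markers in the results below was not tested.

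Nf1 itself read 6.65, 6.59 and 6.15 in the control arrays and 5.39, 5.41 and 5.44 with NF1 RNAi. All 3 knockdown arrays were below all 3 controls. The difference was -1.05 ± 0.13 on the log2 scale (adjusted p = 0.000695), and without Control RNAi replicate 1 the difference was -0.96 (adjusted p = 0.00152). The single Nf1 probe set read under the low end in all 3 knockdown arrays.

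With NF1 RNAi, 3734 of the 14213 genes passed, or 26.3%. Of these, 1850 were higher (13% of genes tested) and 1884 lower (13.3%). Without Control RNAi replicate 1, 3606 passed (25.4%), 1728 higher (12.2%) and 1878 lower (13.2%). The genes that passed in both fits numbered 3188, all in the same direction, 1524 higher and 1664 lower. Another 546 passed only with that array, and 418 only without it. Control and NF1 RNAi arrays did not overlap in 5859 genes (41.2%), against which any lack of overlap named below is to be read.

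Most changes were small, and the large ones were mostly falls. The median difference was 0.42 among the genes that rose and -0.53 among those that fell, with a median SE of 0.09 and a median over all genes of 0.02. At 2-fold or more, 147 genes rose and 378 fell, and without Control RNAi replicate 1 the counts were 148 and 339. Genes were also split into 4 bins of near-equal size by mean level. In the brightest bin 844 genes rose and 617 fell, while in the dimmest 65 rose and 118 fell. In the bin with mean log2 levels from 5.59 to 7.79, 2-fold falls numbered 150 and 2-fold rises 53.

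The rises ranked 11 to 25 by size, among genes whose arrays did not overlap, covered growth signalling, vesicle traffic, calcium storage and the cytoskeleton. Dtna encodes alpha-dystrobrevin, a cytoplasmic part of the dystrophin-associated complex. It read 9.14, 9.08 and 8.95 in controls and 11.23, 11.12 and 11.03 with NF1 RNAi. The 3 arrays of each group were close together, and the rise of 2.07 ± 0.08 (adjusted p = 2.27e-06) was also called by both other probe sets of the gene, at 1.08 and 2.33.

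Met, the receptor tyrosine kinase for hepatocyte growth factor, read 5.81, 6.39 and 6.86 in controls and 8.45, 8.61 and 8.83 with NF1 RNAi, a rise of 2.27 ± 0.26. Igf1, the insulin-like growth factor, went from 5.51, 5.73 and 5.85 to 8.02, 7.65 and 7.44, a rise of 2.01 ± 0.14. Both genes were near the low end in control cells and clearly above it after knockdown, and both of the other Igf1 probe sets rose as well. Rab27b, a small GTPase that docks secretory vesicles, rose by 2.05 ± 0.26 from control levels of 4.87 to 5.58.

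Casq2, the cardiac calsequestrin that stores calcium in the sarcoplasmic reticulum, read 6.39, 6.67 and 6.27 in controls and 8.40, 8.20 and 8.36 with NF1 RNAi, a rise of 1.88 ± 0.10. Synm, the intermediate filament protein synemin, rose by 1.98 ± 0.14, but its other probe sets differed by 0.11 and 0.48, of which 1 passed. Syndig1, which associates with AMPA receptors, rose by 1.93 ± 0.18, and Amph, amphiphysin of clathrin-mediated endocytosis, by 1.87 ± 0.24. Pls1 (plastin 1, an actin bundler) rose by 1.89 ± 0.28, with Control RNAi replicate 1 at 6.48 and the other controls at 7.67 and 7.69, and by 1.49 without that array.

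The rest of this set were Car8 (a carbonic anhydrase relative without the enzyme activity, 2.24 ± 0.44), Npas2 (a clock transcription factor, 2.15 ± 0.49), Qpct (which forms N-terminal pyroglutamate, 2.09 ± 0.48), Slc22a23 (an orphan transporter, 1.97 ± 0.33), Ints6l (an Integrator subunit relative, 1.85 ± 0.25) and Dhrs3. Dhrs3 encodes an enzyme that reduces retinaldehyde to retinol. It read 7.47, 7.50 and 7.34 in controls and 9.38, 9.24 and 9.24 with NF1 RNAi, a rise of 1.85 ± 0.10 (adjusted p = 2.09e-05). All 15 rises passed without Control RNAi replicate 1.

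**Figure D1:**
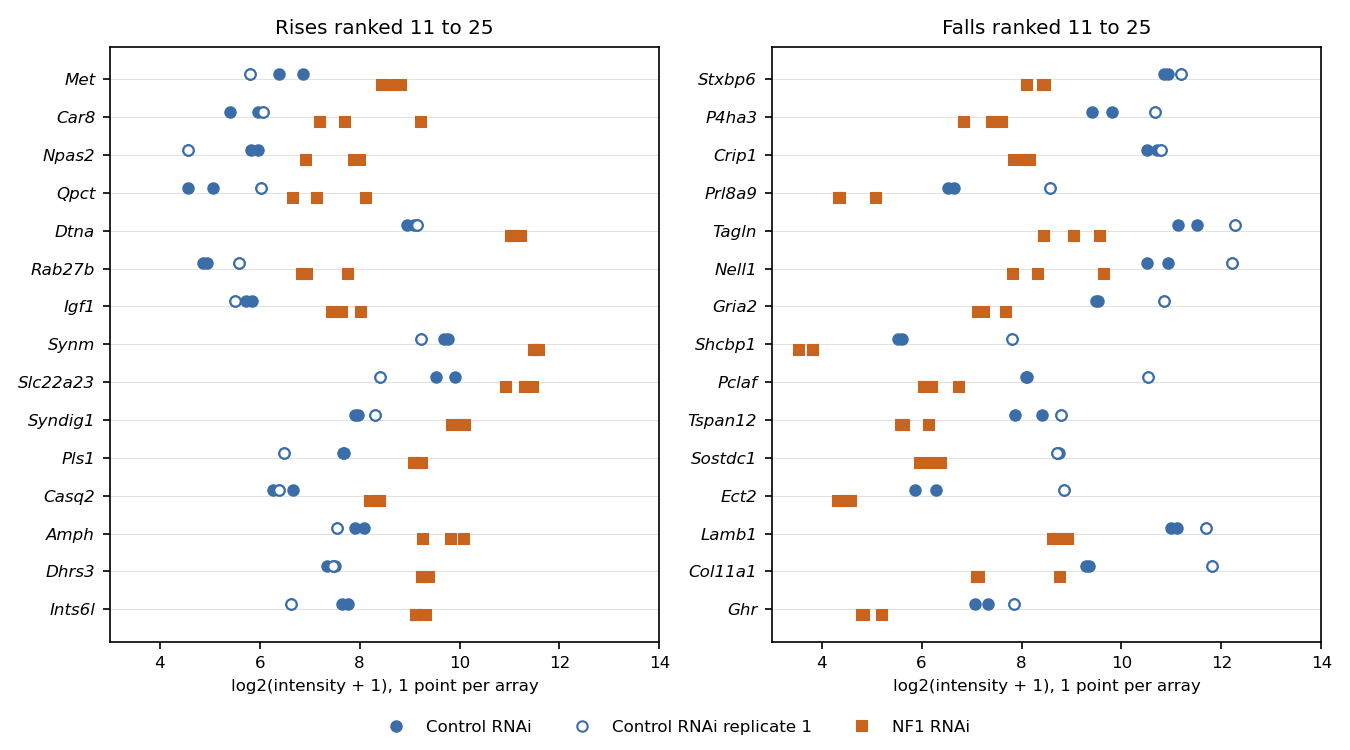
Log2(intensity + 1) of each array for the rises (left) and falls (right) ranked 11 to 25 by size. Circles are the 3 Control RNAi arrays, with replicate 1 open, and squares the 3 NF1 RNAi arrays. In the falls Prl8a9, Shcbp1, Pclaf, Ect2 and Col11a1 the open circle lies far to the right of the other controls, as for Ect2 at 8.85 against 5.87 and 6.29. In Dtna and Dhrs3 the controls lie together.

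The falls ranked 11 to 25, also drawn only from genes whose arrays did not overlap, included matrix, actin and secreted proteins. Crip1, a small LIM-domain protein, read 10.80, 10.72 and 10.51 in controls and 8.09, 8.16 and 7.84 with NF1 RNAi. The difference was -2.65 ± 0.13 (adjusted p = 1.01e-05). Sostdc1, a secreted antagonist of BMP and Wnt signalling, read 8.71, 8.73 and 8.74 against 5.96, 6.38 and 6.21, a difference of -2.54 ± 0.11.

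Some of these genes build extracellular matrix. Lamb1, the laminin beta 1 chain of the basal lamina, read 11.70, 11.12 and 10.99 in controls and 8.62, 8.92 and 8.75 with NF1 RNAi, a difference of -2.51 ± 0.20. P4ha3, a prolyl hydroxylase of collagen, fell by 2.67 ± 0.40, and the actin-binding Tagln fell by 2.63 ± 0.40. Col11a1, a fibrillar collagen chain, fell by 2.48 ± 0.77 (adjusted p = 0.0435), but Control RNAi replicate 1 at 11.81 stood over the other controls at 9.35 and 9.29, and without it the difference was -1.65 (adjusted p = 0.0899). The Col11a1 call also ended without NF1 RNAi replicate 2 (adjusted p = 0.133) or replicate 3 (0.134). With all arrays and the replicate block its adjusted p was 9.22e-05.

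Receptors and vesicle proteins were also in this set. Ghr, the growth hormone receptor, read 7.84, 7.32 and 7.07 in controls and 5.20, 4.85 and 4.80 with NF1 RNAi, a difference of -2.46 ± 0.27. Gria2, an AMPA receptor subunit, fell by 2.59 ± 0.37, and its second probe set fell by 2.63. Stxbp6 (amisyn, which binds SNARE complexes) fell by 2.67 ± 0.21, Tspan12 (a tetraspanin of Norrin and Frizzled signalling) fell by 2.57 ± 0.25 and the prolactin family gene Prl8a9 fell by 2.65 ± 0.60. For Prl8a9, Control RNAi replicate 1 at 8.57 stood over the other controls at 6.64 and 6.53. Without that array its difference was -1.99. Nell1, a secreted protein, fell by 2.61 ± 0.63, a call that was lost without NF1 RNAi replicate 2 (adjusted p = 0.0555) or replicate 3 (0.0588); with all arrays and the replicate block its adjusted p was 7.23e-06.

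Cell division genes in this set depended in size on Control RNAi replicate 1. Pclaf, the PCNA-associated factor, read 10.53, 8.11 and 8.08 in controls and 6.75, 6.21 and 6.04 with NF1 RNAi. Ect2, which is needed for cytokinesis, read 8.85, 5.87 and 6.29 in controls and 4.58, 4.47 and 4.32 with NF1 RNAi. Replicate 1 was thus the highest control array by more than 2 log2 units. That every control lay over every knockdown array was a condition for entering this set. Shcbp1, a midbody protein, had the same form, at 7.80, 5.53 and 5.61 against 3.82, 3.82 and 3.55, and its other probe set read -0.44 without passing. With all arrays the differences were -2.57 ± 0.58, -2.54 ± 0.63 and -2.58 ± 0.51 for Pclaf, Ect2 and Shcbp1, and without replicate 1 the differences were -1.76, -1.62 and -1.84, all past the threshold. Ect2 lost its call without NF1 RNAi replicate 2 (adjusted p = 0.0501) or replicate 3 (0.0537).

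Among the changes with the smallest p at 2-fold or more was one in a bright gene with little spread in either group. Srp14, a subunit of the signal recognition particle that targets proteins to the endoplasmic reticulum, read 12.19, 12.30 and 12.30 in controls and 10.58, 10.58 and 10.52 with NF1 RNAi. The difference was -1.71 ± 0.06 with an adjusted p of 1.69e-06 in the limma fit.

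Others of this kind follow. Sumf1, the enzyme that activates sulfatases, fell by 2.36 ± 0.08, Atp6v0c, the proteolipid ring of the vacuolar proton pump, fell by 1.54 ± 0.06, and Septin11 fell by 1.80 ± 0.08, its other probe set reading -0.25. Among the rises, Vangl1, a planar cell polarity protein, read 10.02, 9.93 and 10.03 in controls and 11.92, 11.73 and 11.80 with NF1 RNAi, a rise of 1.82 ± 0.07 (adjusted p = 2.27e-06), although its other probe set did not pass. Gal, the neuropeptide galanin, rose by 3.78 ± 0.19, with more spread among its controls (6.51, 7.29 and 7.14). None of these calls ended when any of the 6 arrays was left out.

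A few genes crossed the low end of the array, from under a log2 level of 6 in all arrays of one group to at least 7 in all of the other. Upwards there were 4, Igf1, Dyrk3, Htr2b and 1 gene with a provisional name. Dyrk3, a kinase that dissolves stress granules, read 5.01, 5.68 and 5.92 in controls and 8.43, 8.33 and 8.38 with NF1 RNAi, a rise of 2.84 ± 0.20. Htr2b, a serotonin receptor, rose by 3.26 ± 0.35 from control levels of 4.84, 4.03 and 3.67.

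Downwards there were 7. Fst encodes follistatin, which binds activin, and read 10, 8.63 and 8.52 in controls and 5.20, 5.97 and 5.57 with NF1 RNAi, a difference of -3.47 ± 0.36 (-2.99 without Control RNAi replicate 1). Synpr, the synaptic vesicle protein synaptoporin, read 7.47, 7.57 and 7.83 against 5.77, 5.0 and 4.84, a difference of -2.42 ± 0.34. Mfap5, of elastic microfibrils, fell by 1.83 ± 0.22, and Ghr was described above. The remaining 3 act in cell division: Cdkn3, a phosphatase of cyclin-dependent kinase, fell by 2.96 ± 0.57, Racgap1, of the cytokinetic spindle, fell by 2.78 ± 0.44 (its other probe set read -1.29 without passing) and Cenpk, of the centromere, fell by 2.12 ± 0.44. For these 3, replicate 1 was again the highest control, and without it the differences were -2.14, -2.15 and -1.50, all past the threshold.

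Pathways and families were followed through 50 gene lists with no gene on more than 1 list. Of their 2237 members 1981 were measured; 253 rose and 306 fell, so 28.2% passed, near the 26.3% of all genes. Counts are read against that share and against the median difference of 0.02 over all genes. In the plot of list counts, synthetases, annexins and S100 proteins, nuclear transport and purine genes lean to falls, and transport kinesins, homeobox genes and chromatin enzymes lean to rises.

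**Figure D2:**
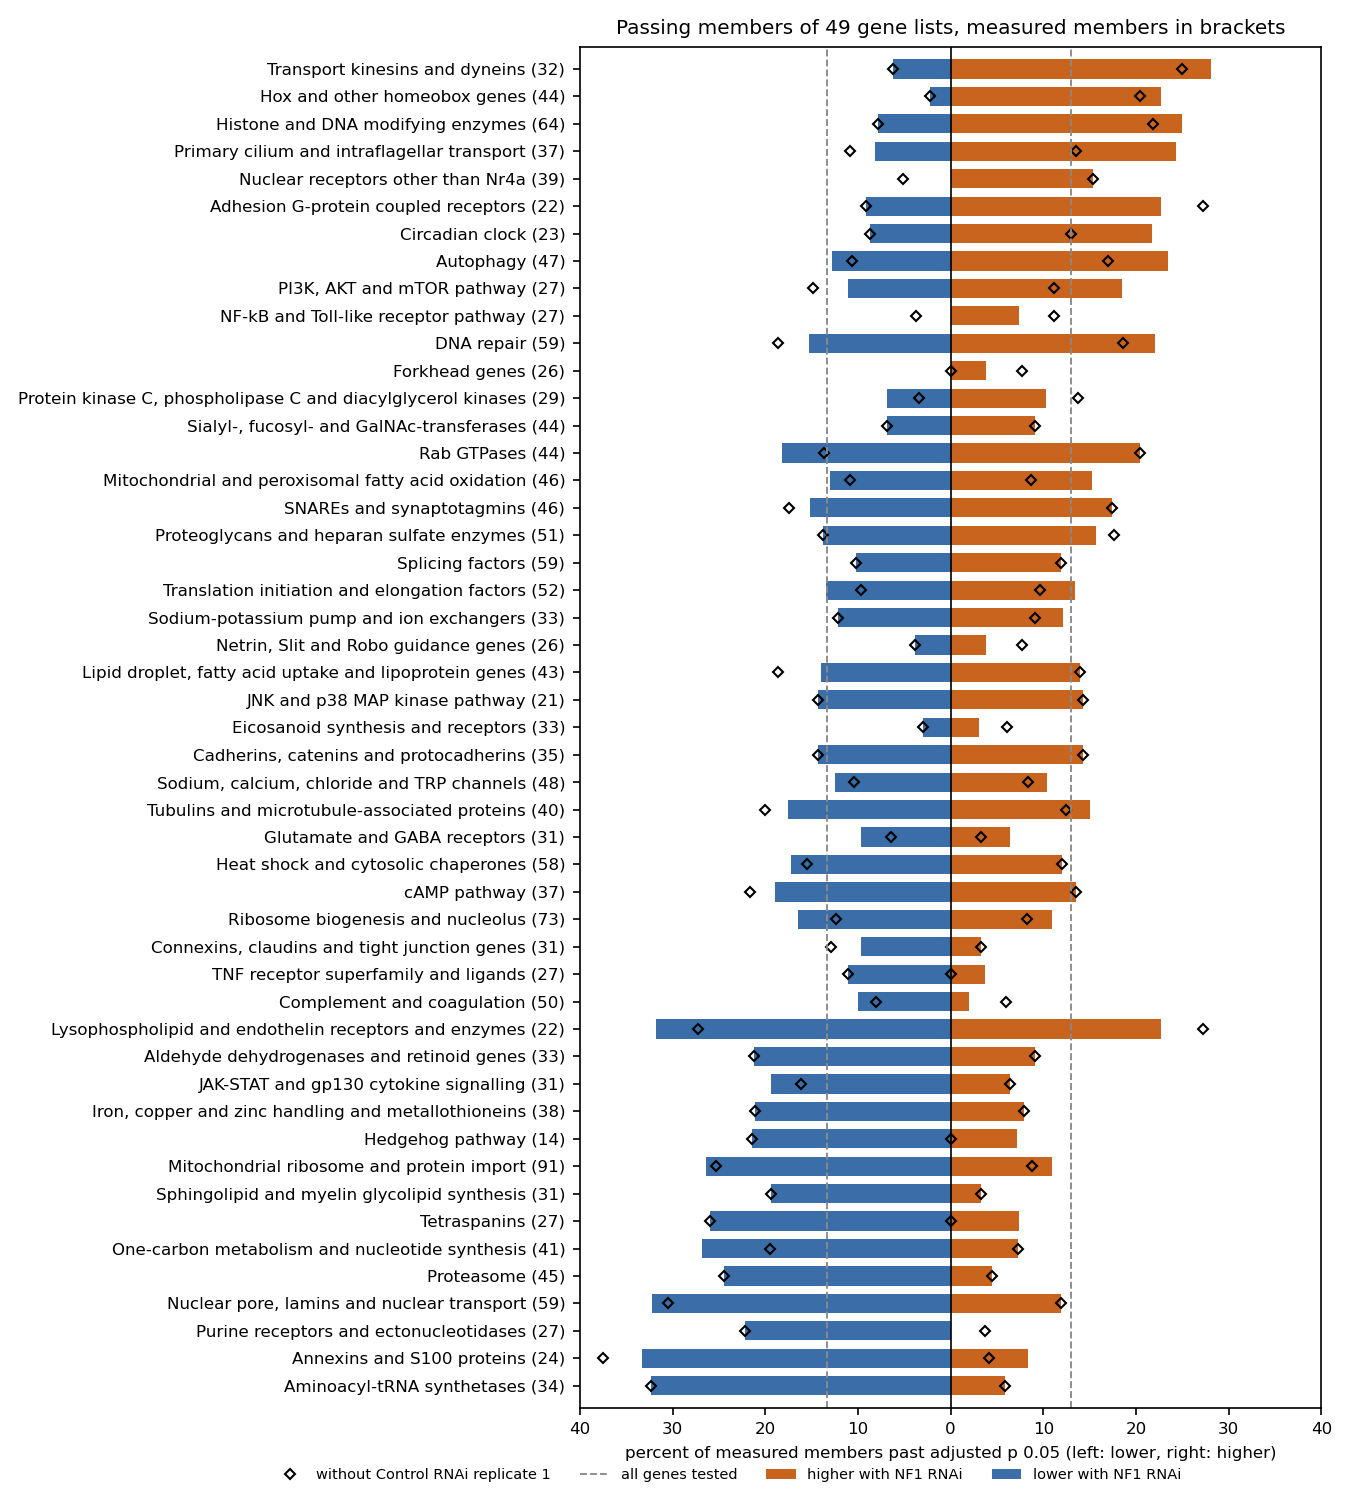
Percent of the measured members of 49 of the 50 gene lists that were lower (left) or higher (right) with NF1 RNAi at an adjusted p under 0.05; numbers in brackets are measured members, diamonds the same without Control RNAi replicate 1, dashed lines all genes tested (13.3% and 13%). Lists are ordered by higher minus lower, from aminoacyl-tRNA synthetases (2 higher, 11 lower of 34) to transport kinesins and dyneins (9 higher, 2 lower of 32).

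In the PI3K, AKT and mTOR list 5 of 27 rose and 3 fell (3 and 4 without Control RNAi replicate 1). That share of 29.6% was near the 26.3% of all genes. Eif4ebp1, the repressor of cap-dependent translation that mTOR inactivates, read 10.01, 9.87 and 9.87 in controls and 7.85, 8.06 and 8.06 with NF1 RNAi. That was the largest change of the list, a difference of -1.92 ± 0.08 (adjusted p = 4.98e-06). Rps6kb1, the S6 kinase on the other arm of mTOR, rose by 0.50 ± 0.09, and Gsk3b, a kinase that AKT inhibits, fell by 0.49 ± 0.09.

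In the JNK and p38 list of stress kinase genes 3 of 21 rose and 3 fell, with or without Control RNAi replicate 1. The share of 28.6% was near the 26.3% of all genes. Map2k3, an activator of p38, read 10.08, 9.82 and 9.84 in controls and 9.08, 9.12 and 9.12 with NF1 RNAi, a difference of -0.81 ± 0.08. Mapk12 (p38 gamma) fell by 0.88 ± 0.16 and Map3k3 fell by 0.74 ± 0.07, with all 3 other Map3k3 probe sets lower too. Gadd45b, a stress sensor that binds MAP3 kinases, rose by 0.73 ± 0.17.

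Protein kinase C and phospholipase genes gave 3 rises and 2 falls of 29 (5 and 3 with the replicate number as a block). Prkci, the atypical PKC of cell polarity, read 10.19, 10 and 9.95 in controls and 8.54, 8.76 and 8.66 with NF1 RNAi, a difference of -1.39 ± 0.09; of its other 2 probe sets 1 passed the same way. Plcb1 rose by 0.83 ± 0.14 and Prkcd, a PKC that responds to diacylglycerol, by 0.67 ± 0.14.

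In the cAMP list 5 of 37 rose and 7 fell (5 and 8 without Control RNAi replicate 1). Schwann cells read cAMP as a signal for differentiation. Pde4b, which breaks cAMP down, read 7.26, 7.74 and 7.53 in controls and 9.29, 9.03 and 8.88 with NF1 RNAi, a rise of 1.56 ± 0.13. Prkar2b, a regulatory subunit of protein kinase A, read 7.71, 7.36 and 7.24 against 5.63, 6.09 and 5.98, a difference of -1.54 ± 0.17. The arrays of the groups did not overlap for either gene, as was so for 41.2% of all genes. The anchors that hold the kinase in place, Akap12 and Akap5, fell, with differences of -1.75 ± 0.30 and -1.29 ± 0.20, Akap5 from levels already under the low end.

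In the list of JAK-STAT and gp130 cytokine signalling 2 of 31 rose and 6 fell, led by Ghr. That share of 25.8% was near the 26.3% of all genes, and the list's median was -0.01. Il6st, the gp130 chain shared by interleukin 6 family receptors, read 10.83, 11.42 and 11.42 in controls and 10.22, 10.58 and 10.55 with NF1 RNAi, a difference of -0.77 ± 0.18 that its 3 other probe sets shared. Il11ra1, a partner of gp130, fell by 0.79 ± 0.14. Socs2, a feedback inhibitor of growth hormone signalling, rose by 0.70 ± 0.07, from 7.08, 7.04 and 7.14 to 7.78, 7.80 and 7.78.

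In the NF-kB and Toll-like receptor list 7.41% passed. Of 27 genes 2 rose and none fell, with 4 at an unadjusted p under 0.05 in limma, and without Control RNAi replicate 1 there were 3 and 1. Nfkbia, the inhibitor that holds NF-kB in the cytoplasm, rose by 0.53 ± 0.13 and Nfkbiz, a nuclear regulator of NF-kB target genes, by 0.78 ± 0.21 (-0.08 at its other probe set), calls that were lost without NF1 RNAi replicate 2 (adjusted p = 0.0536 and 0.0831), Nfkbiz also without 3 other arrays. In the TNF receptor and ligand list 1 of 27 rose and 3 fell, and 18 were under the low end in all arrays. Tnfsf12, the ligand TWEAK, fell by 0.61 ± 0.11.

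The Hedgehog list, in which Schwann cells supply the ligand that shapes the perineurium, gave 1 rise and 3 falls of 14, 28.6% against 26.3% of all genes, with a median of 0.04 and 8 members above 0. Dhh, that ligand, read 10.44, 10.70 and 10.68 in controls and 9.70, 10.09 and 10.19 with NF1 RNAi, a difference of -0.62 ± 0.14. Smo, the signal-transducing receptor, fell by 0.64 ± 0.06, and Gpr161, a ciliary repressor of the pathway, fell by 1.43 ± 0.09. The only rise, Disp1 by 0.34 ± 0.10, did not pass without Control RNAi replicate 1 (adjusted p = 0.074), nor without Control RNAi replicate 3 or NF1 RNAi replicate 1 or 2 (0.0748 to 0.101).

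The list with the highest share of calls was that of lysophospholipid and endothelin receptors and their enzymes, with 5 rises and 7 falls among 22 genes, 54.5% (6 and 6 without Control RNAi replicate 1). Lysophosphatidic acid and sphingosine 1-phosphate act on Schwann cell survival and shape through these receptors. Lpar1, a receptor of the former, read 9.25, 9.33 and 9.38 in controls and 11.16, 10.62 and 10.63 with NF1 RNAi, a rise of 1.48 ± 0.15. S1pr3, a receptor of the latter, read 11.96, 11.76 and 11.83 against 9.34, 9.99 and 9.98, a difference of -2.08 ± 0.23. The pair of receptors moved in opposite directions, each without overlap of the arrays, as was so for 41.2% of all genes. Plpp2, a phosphatase that degrades both lipids, fell by 1.42 ± 0.15. Its relative Plpp3 rose by 0.90 ± 0.22, a call lost without Control RNAi replicate 2 or 3 or NF1 RNAi replicate 1 (adjusted p = 0.0521 to 0.0546), and neither of its other probe sets passed.

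Purine receptors and ectonucleotidases sense and degrade extracellular ATP. None of 27 rose and 6 fell, a share of 22.2% that was under the 26.3% of all genes. In all arrays 15 were under the low end. At an unadjusted p under 0.05 limma gave 8 in either direction, and without Control RNAi replicate 1 there were 1 rise and 6 falls. P2rx4, an ATP-gated channel, read 8.72, 8.57 and 8.61 in controls and 7.20, 7.42 and 7.38 with NF1 RNAi, a difference of -1.30 ± 0.09. P2ry2, a receptor for ATP and UTP, fell by 0.69 ± 0.12. Enpp1, which splits extracellular ATP, fell by 1.46 ± 0.39, and fell by 0.95 without Control RNAi replicate 1; its call was lost without NF1 RNAi replicate 2 (adjusted p = 0.0683) or replicate 3 (0.0831).

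Adhesion G-protein coupled receptors gave 5 rises and 2 falls of 22. Adgrl4 rose by 1.06 ± 0.18 from control levels under the low end, 5.63, 5.35 and 5.23. Adgra2, a co-receptor in Wnt signalling, fell by 1.03 ± 0.29, with Control RNAi replicate 1 at 10.88 and the others at 10.05 and 9.78, and its call ended without NF1 RNAi replicate 2 or 3 (adjusted p = 0.0645 and 0.0976). Among netrin, Slit and Robo guidance genes only 2 of 26 passed. Ntng1 (netrin G1) fell by 1.26 ± 0.18 within levels under the low end, and Srgap2, which acts downstream of Robo, rose by 0.43 ± 0.07, with 1 of its 4 other probe sets passing.

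Of 31 glutamate and GABA receptor genes, 18 of them under the low end throughout, 2 rose and 3 fell (1 and 2 without Control RNAi replicate 1). Beside Gria2, the kainate receptor subunit Grik5 read 6.47, 6.41 and 6.35 in controls and 5.17, 5.33 and 5.36 with NF1 RNAi, a difference of -1.13 ± 0.07. Gabbr1, a subunit of the GABA-B receptor found on Schwann cells, rose by 0.49 ± 0.09; 2 of its 4 other probe sets passed. Gria1 fell by 1.19 ± 0.34, and its call was lost without Control RNAi replicate 1 (adjusted p = 0.0603) or 2 (0.0541) or NF1 RNAi replicate 2 (0.101).

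Ion channels and pumps were near the background share. Of 48 sodium, calcium, chloride and TRP channel genes 5 rose and 6 fell. Scn7a, an atypical sodium channel known from Schwann cells, read 10.35, 11.30 and 11.27 in controls and 8.93, 9.62 and 9.29 with NF1 RNAi, a difference of -1.70 ± 0.26 (-2.01 without Control RNAi replicate 1). Cacna1c, an L-type calcium channel, fell by 0.95 ± 0.13, though its other probe set read -0.17 and did not pass, and Trpm4 fell by 0.82 ± 0.14. Clcn4, an endosomal chloride-proton exchanger, rose by 0.90 ± 0.12.

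Of 33 genes for the sodium-potassium pump and ion exchangers 4 rose and 4 fell. The small FXYD proteins that tune the pump were among the falls, Fxyd1 from 9.55, 9.72 and 9.55 to 8.18, 8.58 and 8.28, a difference of -1.26 ± 0.11, and Fxyd6 fell by 1.64 ± 0.29. Slc8a1, a sodium-calcium exchanger, fell by 1.43 ± 0.16 near the low end, its other probe set reading 0.08. Atp2a2, the calcium pump of the endoplasmic reticulum, rose by 0.74 ± 0.11 from 11.86, 11.61 and 11.60, as did 2 of its 4 other probe sets.

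Of 31 connexin, claudin and tight junction genes 4 passed (12.9%), 1 higher and 3 lower (3 and 4 with the replicate block). Panx1, which forms ATP-releasing channels, rose by 1.04 ± 0.11, but neither of its other probe sets passed. Jam3, a junctional adhesion molecule, fell by 0.49 ± 0.09. Of 35 cadherin, catenin and protocadherin genes 5 rose and 5 fell, with or without Control RNAi replicate 1. Pkp4, a plakophilin, read 7.34, 6.93 and 7.22 in controls and 9.26, 8.87 and 8.72 with NF1 RNAi, a rise of 1.79 ± 0.15. Pkp1, of the same family, fell by 1.36 ± 0.15, from 9.74, 9.30 and 9.15. Fat4, a giant cadherin, rose by 1.47 ± 0.23, and Pcdh20 fell by 1.33 ± 0.23 at both of its probe sets.

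Among 40 tubulins and microtubule-associated proteins 6 rose and 7 fell. Stmn1, which destabilises microtubules, read 12.08, 11.91 and 12.02 in controls and 10.64, 10.73 and 10.69 with NF1 RNAi, a difference of -1.32 ± 0.07. The tubulin Tuba4a fell by 1.37 ± 0.13. Tubb3, which also served as a neuron marker, fell by 2.30 ± 0.34 at its brighter probe set and read -0.00 at the other. Map7, which recruits kinesin to microtubules, rose by 1.15 ± 0.16.

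Transport kinesins and dyneins, the motors of microtubules, gave 9 rises and 2 falls of 32 and a median of 0.11 (8 and 2, median 0.14, without Control RNAi replicate 1). Kif21a read 8.82, 9.26 and 9.40 in controls and 10.58, 10.94 and 11.04 with NF1 RNAi, a rise of 1.70 ± 0.16. Kif3c rose by 0.88 ± 0.11 and the dynein light chain Dynlt3 by 0.51 ± 0.08. Of the 32 genes 25 had a difference over 0 and 7 under it. Genes of the primary cilium, which kinesin 2 and dynein build, gave 9 rises and 3 falls of 37 with a median of 0.11, but 5 and 4 without Control RNAi replicate 1. Cep164, which docks the basal body, rose by 0.52 ± 0.06, and Ift43 and Bbs7 fell, with differences of -0.56 ± 0.09 and -0.53 ± 0.11.

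Vesicle traffic genes passed in both directions. Of 44 Rab GTPases 9 rose and 8 fell, 38.6% (9 and 6 without Control RNAi replicate 1). Rab21, of endosomal integrin traffic, read 10.70, 10.94 and 10.96 in controls and 12.10, 11.82 and 11.92 with NF1 RNAi, a rise of 1.08 ± 0.10. Rab5a, of early endosomes, read 10.99, 11.05 and 11.11 against 10.14, 10.23 and 10.31, a difference of -0.82 ± 0.07. Rab38 fell by 0.90 ± 0.28, but without Control RNAi replicate 1, the highest control, its difference was -0.55 (adjusted p = 0.0552), and the call held only when the array left out was Control RNAi replicate 3. Of 46 SNAREs and synaptotagmins 8 rose and 7 fell, among the falls the syntaxins Stx11 (-1.58 ± 0.34), Stx18 (-0.76 ± 0.07) and Stx3 (-0.62 ± 0.09).

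Tetraspanins, annexins and S100 proteins leaned to falls. Of 27 tetraspanins 2 rose and 7 fell (0 and 7 without Control RNAi replicate 1). Tspan31 read 11.24, 11.44 and 11.40 in controls and 10.57, 10.59 and 10.45 with NF1 RNAi, a difference of -0.82 ± 0.09, and Tspan17 fell by 0.90 ± 0.10. Of 24 annexin and S100 genes 2 rose and 8 fell, with a median of -0.21 against 0.02 for all genes. Without Control RNAi replicate 1 there were 1 and 9, with a median of -0.29.

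Anxa3 had the largest fall of that list, from 8.13, 8.47 and 8.55 to 5.74, 6.08 and 6.16, a difference of -2.39 ± 0.16, though none of its 3 other probe sets passed. S100a13, which takes part in the release of FGF1, fell by 0.84 ± 0.10. S100a6, a small calcium-binding protein, read 11.43, 12.53 and 12.92 in controls and 9.55, 10.98 and 11.18 with NF1 RNAi; its difference of -1.72 ± 0.56 passed only just, and it did not pass when any 1 array other than Control RNAi replicate 1 was left out (adjusted p = 0.0556 to 0.15). With all arrays and the replicate block the adjusted p of S100a6 was 2.75e-05. S100b, the Schwann cell marker, went the other way, from 13.08, 13.33 and 13.32 to 14.05, 14.01 and 14.05.

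**Figure D3:**
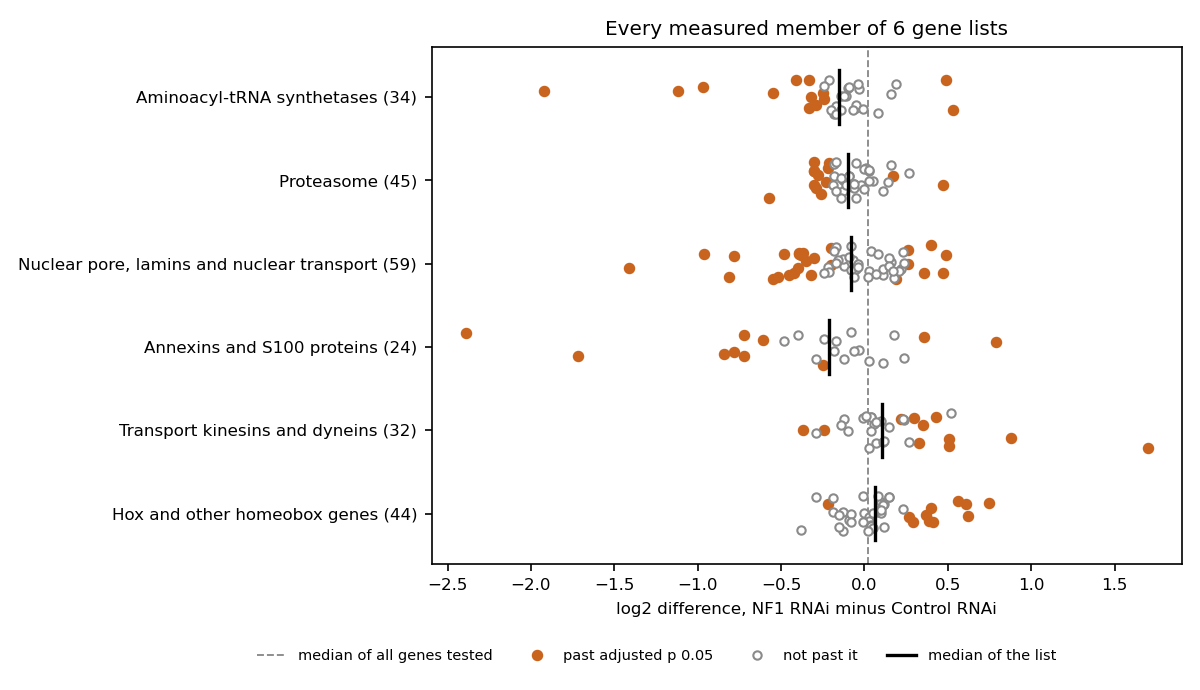
Log2 difference, NF1 RNAi minus Control RNAi, of every measured member of 6 lists. Filled points passed an adjusted p of 0.05, open points did not, bars are list medians and the dashed line is the median of all genes (0.02). The bars of the synthetases and of annexins and S100 proteins lie to the left of that line and that of transport kinesins to its right (0.11), and vertical scatter has no meaning.

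Sphingolipid genes, which feed the glycolipids of myelin, gave 1 rise and 6 falls of 31, with or without Control RNAi replicate 1. That share of 22.6% was under the 26.3% of all genes. Acer3, a ceramidase, read 8.41, 8.39 and 8.44 in controls and 7.33, 7.61 and 7.65 with NF1 RNAi, a difference of -0.88 ± 0.08, and its other probe sets fell too, at -0.47 and -1.06. B4galt5, which makes lactosylceramide, fell by 1.57 ± 0.23 and Sgms1, a sphingomyelin synthase, fell by 1.08 ± 0.10, each with another probe set that did not pass. Eicosanoid genes passed in only 2 of 33 cases, Pla2g6, a phospholipase that rose by 0.35 ± 0.08, and Ptger4, a prostaglandin receptor with a difference of -0.27 ± 0.07 within levels under the low end. The Ptger4 call was lost without Control RNAi replicate 2 or 3 or NF1 RNAi replicate 1 or 2 (adjusted p = 0.0693 to 0.0933).

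Of 43 genes of lipid droplets, fatty acid uptake and lipoproteins 6 rose and 6 fell. Vldlr, a lipoprotein receptor, read 10.11, 9.83 and 9.79 in controls and 8.82, 8.37 and 8.16 with NF1 RNAi, a difference of -1.46 ± 0.22 that all 3 other probe sets shared. The fatty acid carriers Fabp3 and Fabp5 moved apart: Fabp3 went from 7.14, 7.58 and 7.51 to 8.64, 8.61 and 8.63, a rise of 1.21 ± 0.12, and Fabp5 fell by 1.07 ± 0.12. Acsl3, which activates fatty acids, rose by 1.01 ± 0.14. In fatty acid oxidation 7 of 46 rose and 6 fell (4 and 5 without Control RNAi replicate 1), with Abcd2, a peroxisomal importer, up by 1.19 ± 0.12.

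In one-carbon metabolism and nucleotide synthesis 3 of 41 rose and 11 fell (3 and 8 without Control RNAi replicate 1). The mitochondrial folate enzymes, which turn serine into formate for purines, were among the falls. Shmt2 read 9.53, 9.28 and 9.41 in controls and 8.25, 8.57 and 8.35 with NF1 RNAi, a difference of -1.02 ± 0.10. Mthfd2 read 8.76, 8.44 and 8.62 against 7.63, 7.59 and 7.31, a difference of -1.10 ± 0.19, and Mthfd1l fell by 0.88 ± 0.20. The arrays of the groups did not overlap for any of the 3, as was so for 41.2% of all genes. Phgdh, at the head of serine synthesis, fell by 0.74 ± 0.23 with all arrays (adjusted p = 0.044), but not without any 1 of the control arrays (0.0559 to 0.114) or NF1 RNAi replicate 1 (0.0516), nor with the replicate block (0.0524).

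Metal handling genes gave 3 rises and 8 falls of 38, the same without Control RNAi replicate 1. Slc31a1, the copper importer, read 9.91, 9.79 and 9.73 in controls and 8.35, 8.56 and 8.45 with NF1 RNAi, a difference of -1.36 ± 0.09 that 3 other probe sets shared. Steap2, a metalloreductase, fell by 1.03 ± 0.18 and Cp, the copper ferroxidase ceruloplasmin, fell by 0.65 ± 0.15, while Slc30a1, which exports zinc, rose by 0.72 ± 0.14. Of 33 aldehyde dehydrogenase and retinoid genes 3 rose and 7 fell, also the same without that array. Opposite to Dhrs3, the retinoic acid receptor Rarb fell by 1.48 ± 0.32 (-1.02 without the array), the retinoid-responsive chemerin gene Rarres2 fell by 1.42 ± 0.16 and Aldh3b1 fell by 1.41 ± 0.19.

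Of 51 proteoglycan and heparan sulfate genes 8 rose and 7 fell. Srgn, the serglycin core protein, rose by 0.95 ± 0.19 and the heparan sulfotransferase Hs3st1 by 0.89 ± 0.09, the latter from under the low end. Sdc4, a syndecan of focal adhesions, read 10.67, 11.01 and 11.15 in controls and 9.87, 10.32 and 10.27 with NF1 RNAi, a difference of -0.79 ± 0.16. Has2, a hyaluronan synthase, fell by 1.16 ± 0.36 with all arrays and fell by 0.67 without Control RNAi replicate 1, and lost its call when any 1 of the NF1 RNAi arrays was left out (adjusted p = 0.0722 to 0.134). Of 44 sialyl-, fucosyl- and GalNAc-transferases 4 rose and 3 fell (7 and 4 with the replicate block), with St3gal4 up by 0.81 ± 0.10.

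Of 44 Hox and other homeobox genes 10 rose and 1 fell (9 and 1 without Control RNAi replicate 1), although the share passing, 25%, was near that of all genes. Hoxb4 read 7.60, 7.21 and 7.36 in controls and 8.15, 7.96 and 7.89 with NF1 RNAi, a rise of 0.61 ± 0.11. Hoxa5 rose by 0.62 ± 0.10 and Hoxc4 by 0.75 ± 0.14, its other probe set reading 0.19. Hox genes record position along the body axis, and none of the list changed by 2-fold.

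Of 64 histone and DNA modifying enzymes 16 rose and 5 fell (14 and 5 without Control RNAi replicate 1). Smarca2, an ATPase of the SWI/SNF remodelling complex, read 8.20, 8.0 and 8.02 in controls and 9.46, 9.19 and 8.99 with NF1 RNAi, a rise of 1.14 ± 0.12 that both other probe sets shared. Chd3, of the NuRD complex, rose by 0.84 ± 0.09 and Dnmt3a, a DNA methyltransferase, by 0.79 ± 0.18. Kdm5c, a demethylase of histone H3, fell by 0.78 ± 0.12, but its other 2 probe sets read 0.10 and 0.14.

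Clock genes gave 5 rises and 2 falls of 23 (3 and 2 without Control RNAi replicate 1, and 8 and 4 with the replicate block). Npas2, which can stand in for CLOCK, read 4.56, 5.83 and 5.96 in controls and 6.93, 7.88 and 8.0 with NF1 RNAi, a rise of 2.15 ± 0.49. Bhlhe40, a repressor of clock genes, read 7.06, 5.73 and 5.49 against 4.32, 4.28 and 4.17, a difference of -1.84 ± 0.34 (-1.36 without Control RNAi replicate 1). Cry2, a core repressor, rose by 0.53 ± 0.07. Npas2 and Bhlhe40 thus moved apart.

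Of 39 nuclear receptor and cofactor genes 6 passed (15.4%), all higher (6 higher and 2 lower without Control RNAi replicate 1). At an unadjusted p under 0.05 limma gave 11 in either direction. Ncoa1, a steroid receptor coactivator, rose by 0.36 ± 0.06. Nr3c1, the glucocorticoid receptor, rose by 0.68 ± 0.20, with NF1 RNAi replicate 1 at 11.11 and the others at 10.30, and did not pass without any 1 of the control arrays (adjusted p = 0.0617 to 0.087). Among forkhead genes 1 of 26 rose and none fell, Foxk2 by 0.22 ± 0.06 (not without Control RNAi replicate 2, adjusted p = 0.0821, or NF1 RNAi replicate 2, 0.08), with 3 at an unadjusted p under 0.05 in limma (2 rises without Control RNAi replicate 1, and 2 with the replicate block).

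Of 59 splicing factors 7 rose and 6 fell (11 and 9 with the replicate block). Ptbp2, the neuronal polypyrimidine tract-binding protein, read 7.27, 7.28 and 7.33 in controls and 8.34, 8.39 and 8.52 with NF1 RNAi, a rise of 1.13 ± 0.07. Celf1 rose by 0.82 ± 0.12, and Mbnl1, which often opposes it on the same exons, read 10.10, 9.94 and 10.06 against 9.19, 9.47 and 9.48, a difference of -0.65 ± 0.09. Most but not all other probe sets of this pair agreed, 3 of 4 for Celf1 and 2 of 3 for Mbnl1.

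Nuclear pore, lamin and transport genes passed in 44.1% of cases, 7 of 59 higher and 19 lower (7 and 18 without Control RNAi replicate 1), with a median of -0.08. Nutf2, which carries Ran into the nucleus, read 10.64, 10.64 and 10.63 in controls and 9.61, 9.76 and 9.66 with NF1 RNAi, a difference of -0.96 ± 0.07 seen at both probe sets. Xpo7, an exportin, fell by 1.41 ± 0.10. Lmnb1, a lamin, fell by 0.78 ± 0.21 and fell by 0.49 without Control RNAi replicate 1, and lost its call without NF1 RNAi replicate 1 (adjusted p = 0.0877) or replicate 3 (0.0647).

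In the DNA repair list 13 of 59 rose and 9 fell (11 and 11 without Control RNAi replicate 1). Rad54l, of homologous recombination, read 6.78, 6.73 and 7.11 in controls and 5.39, 5.70 and 5.63 with NF1 RNAi, a difference of -1.30 ± 0.11. Blm, a helicase of the same process, went the other way, from 8.64, 8.12 and 8.23 to 9.58, 9.44 and 9.17, a rise of 1.07 ± 0.14. Ercc5, of nucleotide excision repair, rose by 1.53 ± 0.32, with NF1 RNAi replicate 1 highest at 10.07.

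Aminoacyl-tRNA synthetases, which load amino acids onto tRNA, formed the list furthest to the left in the plot of list counts. Of 34 measured, 2 rose and 11 fell, the same counts without Control RNAi replicate 1, and 29 had a difference under 0. The median was -0.16 against 0.02 for all genes. The enzymes of the cytosol led the falls. Iars1, for isoleucine, read 9.94, 9.50 and 9.58 in controls and 7.69, 7.89 and 7.69 with NF1 RNAi, a difference of -1.92 ± 0.11 (adjusted p = 2.28e-05), with its other probe set at -0.47 and also past the threshold. Yars1, for tyrosine, read 10.42, 10.37 and 10.46 against 9.17, 9.38 and 9.34, a difference of -1.12 ± 0.07. Cars1, for cysteine, fell by 0.97 ± 0.14 and Gars1, for glycine, fell by 0.55 ± 0.08.

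A short motif was searched in the promoters of this list. Genes of amino acid supply are known to carry sites for ATF4 and its C/EBP partners, and 8 bases of such a site, TGATGNAA, were searched on both strands in the RefSeq promoters of build GRCr8 (250 bases before the start and 50 after). The motif was chosen after the values of the list had been seen. It was in 7 of the 32 synthetase promoters with a sequence (21.9%), against 2.21% of the 11736 promoters of genes tested and 3.82% of all 27457. Among the promoters of synthetases that fell it was in 5 of 10, among those that rose in 0 of 2, and among those that did not pass in 2 of 20. The stretches around the 5 matches of genes that fell are shown because they let the shared bases be read off directly. Each runs 5′ to 3′ on the strand of its gene, with the 8 matching bases in capitals, as the motif or its reverse complement.
Iars1 (chr17:15193659-15193686, minus strand): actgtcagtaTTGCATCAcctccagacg
Yars1 (chr5:146820191-146820212, plus strand): cgagctcagcTGATGCAAcctg
Cars1 (chr1:208225335-208225362, minus strand): ggcgccgcggTTGCATCAgattctggaa
Tars1 (chr2:62114812-62114839, minus strand): tggcgtcccgTTGCATCAgctggttagc
Nars1 (chr18:60275779-60275806, minus strand): ctaggtgatcTGATGCAAcgcttcagtc
All 5 had C at the free base of the motif. The matches of Iars1, Tars1 and Nars1 began 24, 27 and 14 bases before the start and those of Yars1 and Cars1 at bases 39 and 18 after it. Tars1 and Nars1, which are shown for their match, fell, with differences of -0.33 ± 0.10 and -0.32 ± 0.07, Tars1 not without Control RNAi replicate 1 (adjusted p = 0.0878). The other 2 genes with a match, Mars1 and Aars1, did not pass, at -0.14 ± 0.06 and 0.19 ± 0.07. Gene calls and promoter letters are set side by side here, and binding was not measured.

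Of 52 translation factors 7 rose and 7 fell (5 and 5 without Control RNAi replicate 1, 9 and 15 with the replicate block). Eif1ax, which helps scan for the start codon, read 11.67, 11.60 and 11.61 in controls and 9.87, 10.15 and 10.15 with NF1 RNAi, a difference of -1.57 ± 0.10. Paip1, which joins the poly(A)-binding protein to initiation, rose by 1.33 ± 0.12, and its other probe set by 1.31. Of 73 ribosome biogenesis genes 8 rose and 12 fell (6 and 9 without Control RNAi replicate 1), none by 2-fold; Rrn3, an initiation factor of RNA polymerase I, fell by 0.47 ± 0.06.

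Of 91 genes of the mitochondrial ribosome and of protein import 10 rose and 24 fell (8 and 23 without Control RNAi replicate 1), with a median of -0.03. The largest change was in Timm17b, of the inner membrane translocase, from 8.98, 8.68 and 8.71 to 7.38, 7.68 and 7.55, a difference of -1.25 ± 0.11. Its paralog Timm17a read 10.51, 10.65 and 10.67 in controls and 11.09, 11.08 and 11.02 with NF1 RNAi, a rise of 0.46 ± 0.06. The paralogs thus changed in opposite directions. Of the ribosomal proteins named here, Mrpl23 fell by 0.48 ± 0.07 and Mrpl3 rose by 0.63 ± 0.09.

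Of 45 proteasome genes 2 rose and 11 fell, the same without Control RNAi replicate 1, with a median of -0.10. Psmb2, of the catalytic core, read 11.48, 11.49 and 11.46 in controls and 11.16, 11.25 and 11.11 with NF1 RNAi, a difference of -0.30 ± 0.06. Psme1, of the interferon-inducible activator, fell by 0.57 ± 0.14, its other probe set reading 0.21, and Psme4, another activator, rose by 0.47 ± 0.08, with both other probe sets at 0.51. None of the 45 passed at 2-fold.

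Of 58 heat shock and chaperone genes 7 rose and 10 fell. Hspb1, the small heat shock protein that stabilises actin, read 8.87, 8.68 and 8.85 in controls and 7.0, 6.49 and 6.25 with NF1 RNAi, a difference of -2.22 ± 0.20. Dnajb1, a co-chaperone of HSP70, fell by 0.75 ± 0.13. In the autophagy list 11 of 47 rose and 6 fell (8 and 5 without Control RNAi replicate 1), all by less than 2-fold. Bnip3l, a mitophagy receptor, read 11.67, 12.06 and 12.10 against 12.35, 12.40 and 12.43, a rise of 0.45 ± 0.11, and Rubcn, which restrains autophagy, fell by 0.48 ± 0.10. The other probe sets of Bnip3l (0.27), Rubcn (0.10) and Dnajb1 (-0.50) did not pass.

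Complement and coagulation genes were largely at the low end, 31 of 50 in all arrays, and 1 rose and 5 fell (3 and 4 without Control RNAi replicate 1). C1r, a protease of the first complement complex, read 7.26, 7.45 and 7.70 in controls and 5.98, 5.95 and 6.04 with NF1 RNAi, a difference of -1.48 ± 0.10. Its partner C1s fell by 1.08 ± 0.33, but did not pass when any 1 array other than Control RNAi replicate 1 was left out (adjusted p = 0.0772 to 0.105). The membrane inhibitors Cd59b and Cr1l fell, with differences of -0.73 ± 0.12 and -0.66 ± 0.06, Cr1l with another probe set at 0.13.

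Short promoter motifs were also counted over all passing genes, on both strands of the same 300-base windows, for 1579 genes that rose, 1571 that fell and the 11736 tested. The ETS core CCGGAAG was in 20.3% of rises, 16.1% of falls and 15.1% of all, but in 5.74% of the 122 genes that rose and 8.09% of the 309 that fell by 2-fold or more. The GC box GGGCGG was in 64.7%, 67.6% and 57.5%, and the TATA box TATAAA in 5.38%, 6.17% and 8.45%. The E2F sites TTTCGCGC and TTTGGCGC were rare, at 0.891% and 1.02% of falls, 0.38% and 0.633% of rises and 0.562% and 0.801% of all.

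For the remaining motifs the shares were as follows. CCAAT was in 35.7% of rises, 39.9% of falls and 37.3% of all, the cell cycle element TTTGAA in 10.3%, 12.3% and 12.3%, and the TEAD core GGAATG in 8.8%, 12.6% and 11.7%. The AP-1 site TGACTCA was in 3.93%, 2.99% and 3.8%, the CRE TGACGTCA in 2.47%, 2.61% and 2.85% and the E-box CACGTG in 9.31%, 7.89% and 8.91%. Of the 11 motifs, none but CCAAT and GGGCGG was in more than 1 in 4 promoters of any of these sets. In the genes that rose by 2-fold or more the GC box was in 54.1%, under its share of all, CCAAT in 28.7%, AP-1 in 6.56%, the CRE in 0.82% (1 of 122), TTTGAA in 9.84% and TEAD in 9.84%. In those that fell by as much they were in 64.7%, 42.4%, 2.91%, 2.59%, 15.9% and 13.9%. The E-box (7.38% and 7.77%) and the TATA box (7.38% and 5.18%) complete these sets, with the E2F sites in 0 of the 122 rises and 0.971% of the falls each. These shares describe letters in a window, and bright genes pass more often than dim ones.

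Over the genes named by the rule, 230 passed, and 221 of these also passed without Control RNAi replicate 1, all in the same direction. The 9 that did not were Col11a1, Tnfrsf11b, Disp1, Celsr2, Gria1, Rab38, Phgdh, Nr3c1 and Zeb1. With each of the other control or NF1 RNAi arrays left out in turn, between 201 and 217 kept their call, so the array that stood apart was the one whose absence cost the fewest named genes. Another probe set was present for 98 of the 230; all others passed the same way for 53, some for 16 and none for 29.

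**Figure D4:**
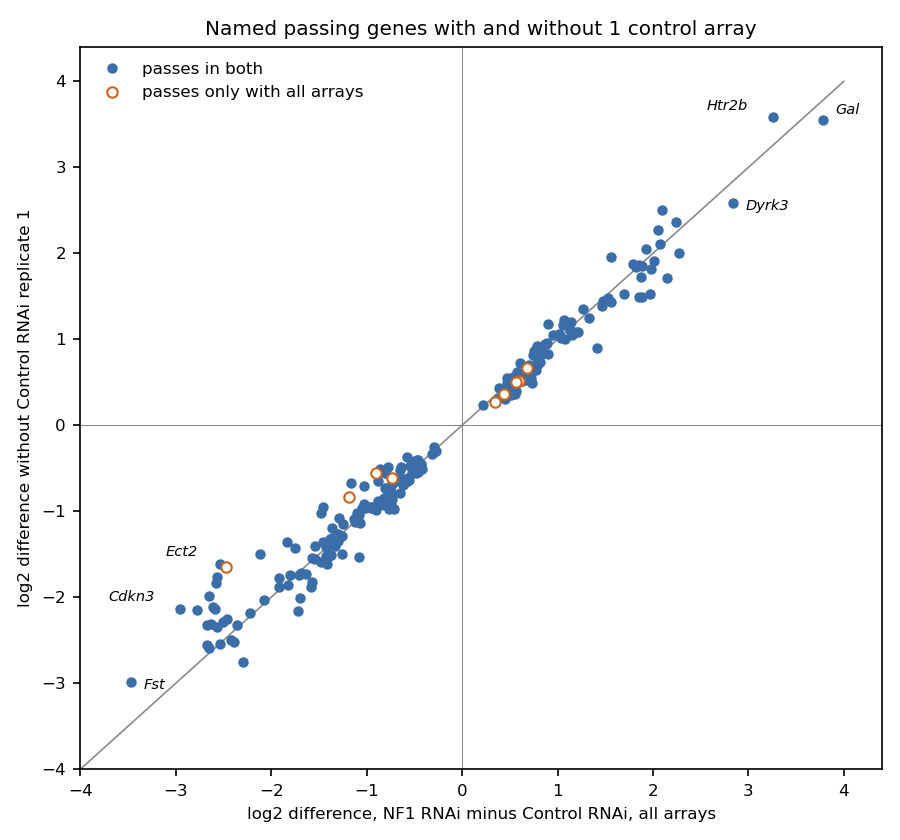
Log2 difference, NF1 RNAi minus Control RNAi, of the 230 named passing genes with all arrays (x axis) and without Control RNAi replicate 1 (y axis); the diagonal marks equal values. The 9 open points passed only with all arrays. Cell division genes such as Ect2 and Cdkn3 lie above the diagonal, nearer to 0 without the array.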

How the data were processed

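Expression was measured on 9 arrays of total RNA, 3 per group; only the group label assigned an array to its group. The deposited values are linear probe set intensities that the authors computed with RMA, per the submitters' processing notes, with no version given in the sources used here. They were analysed as log2(intensity + 1). Of 31042 probe sets that are not controls, 20826 were annotated to exactly 1 gene, 436 to several and 9780 to none; the probe set with the highest mean stood for a gene, with no filter on low values. limma 3.58.1 in R 4.3.3 (lmFit, eBayes) was fitted to group means over all 9 arrays, with Benjamini-Hochberg adjustment over 14213 genes. Python 3.11.15, pandas 2.3.3 and matplotlib 3.10.9 were used for tables and plots.

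The members and lists were chosen with earlier results of these data known. Named genes are Nf1, the rises and falls ranked 11 to 25 and the 5 of each direction with the smallest p at 2-fold or more. Both of these sets were drawn from passing genes that were non-overlapping and non-provisional. Up to 4 passing genes per list with the largest difference, and genes crossing the low end, were named as well. Tars1, Nars1, Mars1 and Aars1 were chosen after their values were seen. Of the gene lists, 1 and its genes are not reported here. Same-numbered control and NF1 RNAi arrays deviated together (r = 0.446, 0.167 and 0.336, over genes), but the labels do not say what the numbers share. Control RNAi replicate 2 and NF1 RNAi replicate 3 also did (r = 0.23), as did Control RNAi replicate 3 and NF1 RNAi replicate 2 (0.288). The numbers thus did not tell replicates 2 and 3 apart. All other different-number pairs held a replicate 1 and were negative (-0.277 to -0.449). Deviations from a group mean cancel over the arrays of the group. A positive r between the replicate 1 arrays therefore makes their other pairs negative on balance. The main fit used no pairing, and the replicate block was only an alternative. The counts per list and marker calls with the replicate block, and marker sums without the brightest marker, were added after the data were seen. Tested on simulated data with 200 changed genes among 14213, the fit recovered 72% at a log2 change of 0.5 and 94% at 1, with 5.7% false calls. The root mean square error of the changed genes was 1.4 times their mean SE. The simulated noise was normal and independent between arrays, with no array apart, and fewer genes changed than passed here. These rates therefore do not give those of the real arrays.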

Additional observations from a re-analysis of the deposited data

How the results depend on the processing

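Of the alternatives tried, none reversed a named gene. The count of 3734 passing genes became 4547 with the replicate block (2238 higher, 2309 lower), under which 229 of 230 named passing genes kept their call, the exception being Phgdh. Leaving out 1 array at a time gave 2790 (without NF1 RNAi replicate 1) to 3606 (without Control RNAi replicate 1), and 2377 genes passed in all 6 such fits. The count moved beyond 1.5 times with array weights (5980), with all 31042 probe sets (6338), at an adjusted p under 0.01 (2116) and with a 2-fold limit (525). The filter on low values, median centring, quantile normalization, a fit of only the 2 groups, an intensity trend, the mean of the probe sets, no pseudocount and leaving out all replicate 1 arrays gave between 3236 and 3855. With 3 arrays per group and dim genes near background, a gene that did not pass is not shown to be unchanged.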
